A study of Homo sapiens with 24 samples.

Results

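The clustered histone genes are the genes of the HIST1, HIST2, HIST3 and HIST4 clusters, which encode the core histones H2A, H2B, H3 and H4 and the linker histone H1. They were taken as every gene whose symbol starts with HIST1H, HIST2H, HIST3H or HIST4H, leaving out 7 pseudogenes whose symbols carry PS and a number, which gave 60 of the 37411 genes in the count table. Of these, 21 passed the filter on low counts and were tested, and 6 were well counted, meaning that they were tested and averaged at least 50 reads per library. The other 39 averaged 0.0417 to 5.83 reads per library and were not tested.

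The libraries were made from total RNA of PC9, an established line of human lung adenocarcinoma cells, grown in RPMI 1640 medium. The cells were given fresh medium 24 or 6 h before harvest, without or with asparagine, an amino acid that cells can also make with asparagine synthetase (ASNS), and with 200 nM ISRIB or 0.004% DMSO as the vehicle. ISRIB is a small molecule that stimulates eIF2B, the exchange factor of eIF2, and thereby counters the integrated stress response, in which eIF2 is phosphorylated. At each of the 2 times the groups were ISRIB without asparagine, vehicle without asparagine, ISRIB with asparagine and vehicle with asparagine, with 3 biological replicates in each of the 8 groups and 24 libraries in all. Because the labels do not say whether replicates came from separate cultures, p-values measure the spread between these libraries.

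Most clustered histone genes are expressed in S phase, when new DNA has to be packed into nucleosomes. Their main transcripts end in a short stem-loop, bound by the stem-loop binding protein SLBP, in place of a poly(A) tail, and have no introns. A number of them also give polyadenylated transcripts that run on past the stem-loop, which are known from differentiated and resting cells. Libraries that start from poly(A) RNA hold little of the stem-loop form; which RNA was selected here is not given in the sources used.

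The stem-loop is shown for 8 genes on which the results turn, with 5 flanking bases on each side and the 16 stem-loop bases in capitals, 5′ to 3′ on the strand of the gene, in GRCh38 coordinates of GENCODE release 29. They are the 7 genes with an annotated stem-loop that rose with ISRIB in medium without asparagine at 24 h, and HIST1H3E, an H3 gene with a stem-loop form of its own.
HIST3H2A, chr1:228457364-228457389, minus strand: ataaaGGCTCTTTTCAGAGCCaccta
HIST2H2BE, chr1:149886183-149886208, minus strand: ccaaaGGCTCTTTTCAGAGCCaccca
HIST1H2BD, chr6:26158582-26158607, plus strand: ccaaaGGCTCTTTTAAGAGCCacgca
HIST1H2BN, chr6:27839085-27839110, plus strand: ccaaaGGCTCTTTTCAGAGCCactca
HIST1H3E, chr6:26225591-26225616, plus strand: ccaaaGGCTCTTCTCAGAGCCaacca
HIST1H3G, chr6:26270918-26270943, minus strand: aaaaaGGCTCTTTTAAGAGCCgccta
HIST1H3H, chr6:27810511-27810536, plus strand: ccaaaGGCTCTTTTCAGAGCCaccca
HIST1H4I, chr6:27139649-27139674, plus strand: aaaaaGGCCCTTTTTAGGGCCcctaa

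The search pattern was GGNNNTNNTNANNNCC on the sense strand of annotated transcripts, with all 6 stem positions paired around a loop of 4 bases. It was found in 26 of the 60 genes, against 213 of 58721 genes (0.363%) in the whole annotation. The form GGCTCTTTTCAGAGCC was the most frequent and occurred in 13 genes. The forms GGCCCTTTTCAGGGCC and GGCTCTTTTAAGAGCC each occurred in 5, and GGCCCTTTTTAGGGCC in HIST1H4I and HIST2H4A alone. HIST1H3E carried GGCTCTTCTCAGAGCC, which no other clustered histone gene had. In 18 of the 26 genes the longest annotated transcript ran at least 200 bases past the stem-loop, by 1862 bases in HIST1H3E, 1729 in HIST2H2BE, 390 in HIST3H2A and 212 in HIST1H4I. The annotated transcripts of HIST1H2BK, HIST1H2BJ and HIST1H1C did not contain the pattern. HIST1H2BK and HIST1H1C have no annotated 3′ untranslated region, so a stem-loop past the coding stretch could not be found in them. This limit applies to 25 protein-coding genes of the set.

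By the class in their symbols, 20 of the 60 genes were H2B, 12 H4, 11 H2A, 11 H3 and 6 H1. On chromosome 6 the HIST1 cluster held 46 of them in 3 blocks, of which the first (chr6:26017085-26285638) had 27, the second (chr6:27125897-27147515) had 5 and the third (chr6:27807444-27893843) had 14. HIST2 and HIST3 on chromosome 1 held 10 and 3, and HIST4 on chromosome 12 held 1. GENCODE release 29 matched 59 identifiers, all but that of HIST2H2BC; 56 were protein coding and 3 were pseudogenes without PS in their symbols (HIST2H2BA and HIST2H2BD among the H2B genes and HIST2H3DP1 among the H3 genes).

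Counts were low throughout. The 60 genes together took 629 to 1967 reads per library, which was 0.00368% to 0.00845% of all reads, and the 6 well counted genes held 67.7% of the reads of the 60. These 6 were HIST3H2A with a mean of 178 reads per library, HIST1H2BK with 166, HIST1H4I with 127, the linker histone gene HIST1H1C with 112, HIST1H2AC with 82.4 and HIST1H2BD with 50. HIST1H2BD lay at the limit of 50, and HIST2H2BE with 45.2 was the first gene below it. Per kilobase of annotated exon the order changed: HIST1H2BK, which has only a coding stretch of 381 bases in the annotation (chr6:27146418-27146798, minus strand), came first with 21.2 CPM per kb. HIST3H2A (chr1:228456979-228457873, minus strand) followed with 9.69 CPM per kb, HIST1H1C (chr6:26055787-26056428, minus strand) with 8.50 and HIST1H4I (chr6:27138588-27139881, plus strand) with 4.81. HIST1H2BD (chr6:26158146-26171349, plus strand) had 2.79 CPM per kb and HIST1H2AC (chr6:26124145-26139116, plus strand) 2.39. CPM are reads per 1000000 reads of a library, whose total was first scaled by TMM, the trimmed mean of M values.

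The length of the annotated 3′ untranslated region went along with the count. Of 22 protein-coding genes whose longest annotated 3′ untranslated region had at least 200 bases, 17 were tested, and the median of their mean counts was 14.5 reads per library. Among the 9 genes with fewer than 200 bases 1 was tested, and among the 25 with none annotated 3 were, with a median of 1.5 reads in each set. HIST1H2BK and HIST1H1C, both well counted, were among the 25 without an annotated one. HIST1H2BH went the other way, with 1679 bases and a mean of 0.125 reads. Longer exons also collect more reads, and per kilobase the medians were 0.432 CPM for the 22 genes, 0.168 for the 9 and 0.146 for the 25. Whether reads came from the stem-loop form or from longer transcripts was not tested.

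**Figure D1:**
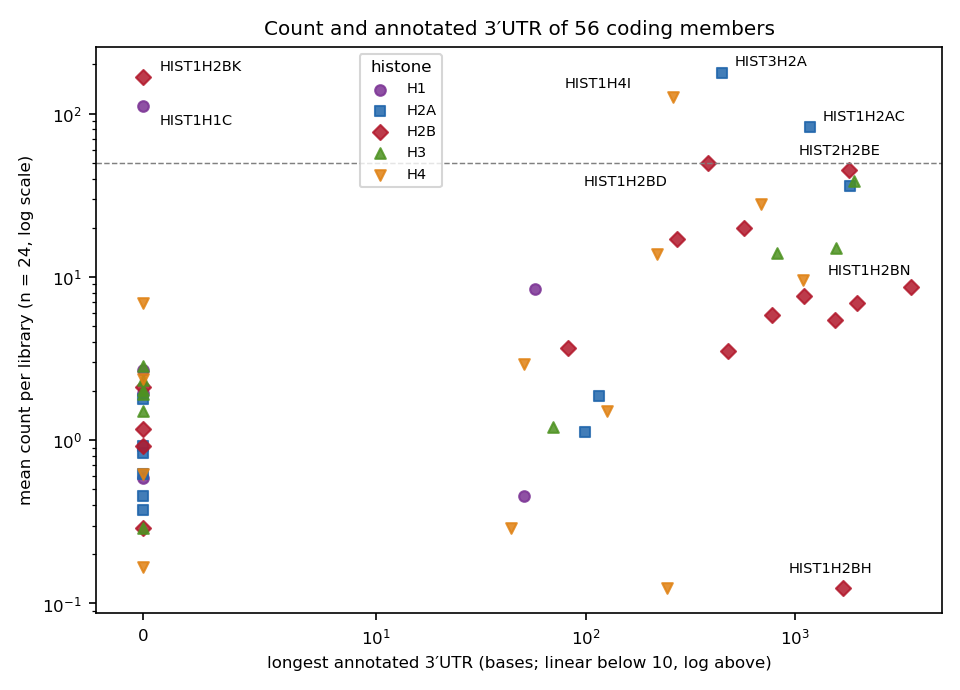
Mean count per library (log axis) against the length in bases of the longest annotated 3′ untranslated region for the 56 protein-coding clustered histone genes, 1 point per gene; the dashed line marks 50 reads. Of the 22 genes with at least 200 bases 17 were tested, and HIST1H2BK and HIST1H1C are the well counted genes with none annotated.

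Sequence shared between copies limits what single counts mean. Of the 50-base windows of HIST1H2BK, 74.1% also occurred in another annotated gene, chiefly H2BFS, so its reads may be split with that copy. Values of H2BFS are not given here. The share was 8.11% for HIST2H2BE, 5.36% for HIST1H2BD, 4.65% for HIST1H2BJ, 0.591% for HIST3H2A, 0.562% for HIST1H4I and 0 for HIST1H1C. By gene span, introns included, HIST1H2BD overlaps AL353759.1 on the other strand and LARP1P1 on its own. HIST1H2BN likewise overlaps HIST1H2AK on the other strand and HIST1H2AL on its own. Of the windows in sense transcripts, 5.36% for HIST1H2BD, 3.52% for HIST1H2BN and 4.07% for HIST1H2AL occurred in any other gene. Strand-specific counting is not stated, so reads from exons that overlap on opposite strands may not have been told apart.

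Library totals ran from 16737384 to 27495861 reads. ASNS, a target of the integrated stress response, checked the labels: at 24 h without asparagine it had 18 ± 0.774 CPM with ISRIB and 57.1 ± 2.40 CPM with vehicle (SD, n = 3 each). DDIT3, another target, went the other way in this comparison, with 9.05 ± 0.407 CPM with ISRIB and 5.95 ± 0.356 CPM with vehicle. The epithelial markers KRT8 (group means of 3566 to 4537 CPM) and EPCAM (group means of 437 to 515 CPM) were high in every group, while group means of NKX2-1, a lung lineage factor, were 0 to 0.038 CPM. Of 9 markers of immune, endothelial and fibroblast cells COL1A1 and PECAM1 had most reads, while the T cell marker CD3E and the fibroblast marker LUM were near 0; the 9 summed to 10.8 to 14.9 CPM with ISRIB and to 8.51 to 11.1 CPM with vehicle without asparagine at 24 h. In that comparison COL1A1, a fibroblast collagen gene, rose by 0.96 on the log2 scale (edgeR adjusted p = 0.0043). PECAM1, an endothelial marker, fell by 1.62 (0.0012). The other fibroblast markers COL1A2 and DCN had group means of at most 0.154 and 0.122 CPM, and the endothelial VWF of at most 0.272 CPM. The source of the COL1A1 and PECAM1 reads in this cell line was not tested. Libraries differed in how counts leaned with the GC content of transcripts, with slopes per 10 percentage points of GC of 0.213, -0.0473 and 0.159 (log2) in the 3 libraries of ISRIB without asparagine at 24 h, and of -0.175, -0.00535 and -0.176 in those of vehicle without asparagine at 24 h. The 3 lowest slopes were -0.388 in replicate 3 of ISRIB with asparagine at 24 h, -0.366 in replicate 3 of ISRIB without asparagine at 6 h and -0.196 in replicate 1 of ISRIB with asparagine at 6 h. The 21 tested clustered histone genes had a GC content of 42.0% to 61.2%, with a median of 50.6%.

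The first comparison asks what ISRIB does to starved cells after 24 h. Without asparagine at 24 h, 9 of the 21 tested clustered histone genes rose with ISRIB against vehicle and 0 fell (edgeR, Benjamini-Hochberg adjusted p below 0.05 over 17409 genes), where 10.1% of all tested genes rose and 11.6% fell. The 9 were HIST1H2BK, HIST1H4I, HIST2H2BE, HIST1H2BN, HIST1H3G, HIST3H2A, HIST1H2BJ, HIST1H2BD and HIST1H3H. The median log2 fold change of the 21 was 0.81, against 0.00 over all tested genes, and 20 of the 21 had a positive value. Limma on the 21 also called 9 higher and 0 lower. DESeq2 kept 16 clustered histone genes for testing and called 9 higher and 0 lower, but HIST1H2BN was not among its 9. The shares of all genes that limma and DESeq2 called are not given here. At an unadjusted edgeR p below 0.05, 13 of the 21 were higher and 0 lower, where 6230 of all 17409 genes differed. Levels in bulk libraries cannot tell a change in the number of S-phase cells from one in the RNA of each cell.

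Among the H2B genes, whose protein pairs with H2A in the nucleosome, HIST1H2BK stood highest. It had 15.7, 15.3 and 15.5 CPM with ISRIB without asparagine at 24 h, against 7.71, 8.17 and 5.32 CPM with vehicle without asparagine. With asparagine at 24 h it had 7.32, 7.57 and 5.78 CPM with ISRIB and 7.01, 6.44 and 6.34 CPM with vehicle. The 3 starved libraries with ISRIB lay apart from the other 21 libraries of the study, the highest of which had 8.97 CPM. The log2 fold change against vehicle without asparagine was 1.13 ± 0.19 (SE; edgeR adjusted p = 0.00029).

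HIST2H2BE, an H2B gene of the chromosome 1 cluster (chr1:149884459-149886652, minus strand), was also highest with ISRIB without asparagine. Its levels without asparagine at 24 h were 3.95, 3.5 and 3.57 CPM with ISRIB, against 1.79, 1.80 and 1.5 CPM with vehicle. With asparagine they were 2.71, 2.12 and 1.25 CPM with ISRIB and 2.71, 2.21 and 1.86 CPM with vehicle. The starved ISRIB libraries were again above all 21 others, of which the highest had 3.02 CPM, and the log2 fold change was 1.11 ± 0.28 (edgeR adjusted p = 0.0082).

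HIST1H2BJ, an H2B gene that lies head to head with the H2A gene HIST1H2AG at a distance of 291 bases, was counted less. It had 1.48, 1.87 and 1.95 CPM with ISRIB and 0.547, 1.11 and 0.967 CPM with vehicle without asparagine at 24 h. With asparagine it had 0.813, 0.729 and 0.340 CPM with ISRIB and 1.04, 0.987 and 1.01 CPM with vehicle. The starved groups did not overlap, with a log2 fold change of 0.99 ± 0.31 (edgeR adjusted p = 0.028).

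HIST1H2BD had 4.67, 3.99 and 4.02 CPM with ISRIB and 2.49, 2.45 and 2.32 CPM with vehicle without asparagine at 24 h. In fed cells, given asparagine, it had 2.71, 2.22 and 3.12 CPM with ISRIB and 2.58, 2.63 and 2.57 CPM with vehicle. The starved ISRIB libraries stood above the other 21, and the log2 fold change was 0.81 ± 0.26 (edgeR adjusted p = 0.029).

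HIST1H2BN, at under 1 CPM, had 0.759, 0.641 and 0.892 CPM with ISRIB and 0.299, 0.369 and 0.339 CPM with vehicle without asparagine at 24 h. In fed cells it had 0.452, 0.382 and 0.340 CPM with ISRIB and 0.317, 0.282 and 0.553 CPM with vehicle. Its starved groups did not overlap either, with a log2 fold change of 1.16 ± 0.32 (edgeR adjusted p = 0.014), which was no longer called with DESeq2 or without the filter on low counts. In all, 5 of the 8 tested H2B genes rose.

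Of the 3 tested H2A genes HIST3H2A, from the small cluster on chromosome 1, rose. It had 10.8, 9.86 and 10.0 CPM with ISRIB and 6.97, 7.52 and 5.76 CPM with vehicle without asparagine at 24 h. With asparagine it had 8.18, 8.19 and 6.18 CPM with ISRIB and 7.87, 7.75 and 6.39 CPM with vehicle. At 24 h the starved ISRIB group lay above the other 3 groups, and the log2 fold change against starved vehicle was 0.60 ± 0.18 (edgeR adjusted p = 0.020).

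HIST1H2AG had 2.80, 2.17 and 2.68 CPM with ISRIB and 1.74, 2.08 and 1.69 CPM with vehicle without asparagine at 24 h, against 2.08, 1.63 and 2.95 CPM with ISRIB and 2.67, 2.02 and 1.96 CPM with vehicle when asparagine was present. The starved groups did not overlap, but the log2 fold change of 0.47 ± 0.24 did not pass (edgeR adjusted p = 0.17). HIST1H2AC, with 6.83, 6.16 and 5.74 CPM with ISRIB and 4.28, 3.51 and 4.11 CPM with vehicle in starved cells, came close to the threshold at 0.66 ± 0.25 (edgeR adjusted p = 0.058).

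Of the 3 tested H3 genes 2 rose. HIST1H3G had 1.64, 1.13 and 2.23 CPM with ISRIB and 0.348, 0.969 and 0.774 CPM with vehicle without asparagine at 24 h. With asparagine it had 0.813, 0.729 and 0.793 CPM with ISRIB and 0.678, 0.893 and 0.855 CPM with vehicle. The starved groups did not overlap, although single libraries spread widely, and the log2 fold change was 1.23 ± 0.35 (edgeR adjusted p = 0.015).

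HIST1H3H, the last of the 9 by adjusted p, had 0.918, 1.04 and 1.73 CPM with ISRIB and 0.547, 0.508 and 0.580 CPM with vehicle, a log2 fold change of 1.14 ± 0.38 (edgeR adjusted p = 0.037). HIST1H3E had 2.80, 2.22 and 2.01 CPM with ISRIB and 1.29, 1.71 and 2.47 CPM with vehicle without asparagine, which overlapped. With asparagine at 24 h it had 2.40, 2.22 and 2.83 CPM with ISRIB and 2.85, 1.93 and 2.31 CPM with vehicle, so that all 4 groups overlapped.

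HIST1H4I was the one of 5 tested H4 genes that rose. It had 8.63, 10.5 and 11 CPM with ISRIB and 5.92, 6.28 and 5.85 CPM with vehicle without asparagine at 24 h. With asparagine it had 6.6, 4.13 and 3.97 CPM with ISRIB and 5.83, 5.78 and 5.38 CPM with vehicle. The starved ISRIB libraries were above the other 21, whose highest value was 6.94 CPM, and the log2 fold change was 0.73 ± 0.16 (edgeR adjusted p = 0.0031). HIST1H4E had a larger log2 fold change of 1.17 ± 0.43 on 0.559 to 0.641 CPM with ISRIB against 0.231 to 0.290 CPM with vehicle, and did not pass (edgeR adjusted p = 0.054). HIST1H4A, at -0.42 ± 0.55, was the single tested gene with a negative value (edgeR adjusted p = 0.61).

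Neither of the 2 tested H1 genes passed. HIST1H1C, which encodes a linker histone, had 7.67, 7.74 and 6.64 CPM with ISRIB and 6.82, 5.17 and 3.97 CPM with vehicle without asparagine at 24 h. In fed cells it had 5.29, 4.34 and 6.86 CPM with ISRIB and 5.47, 4.75 and 5.23 CPM with vehicle. The starved groups overlapped, and the log2 fold change was 0.47 ± 0.18 (edgeR adjusted p = 0.067).

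**Figure D2:**
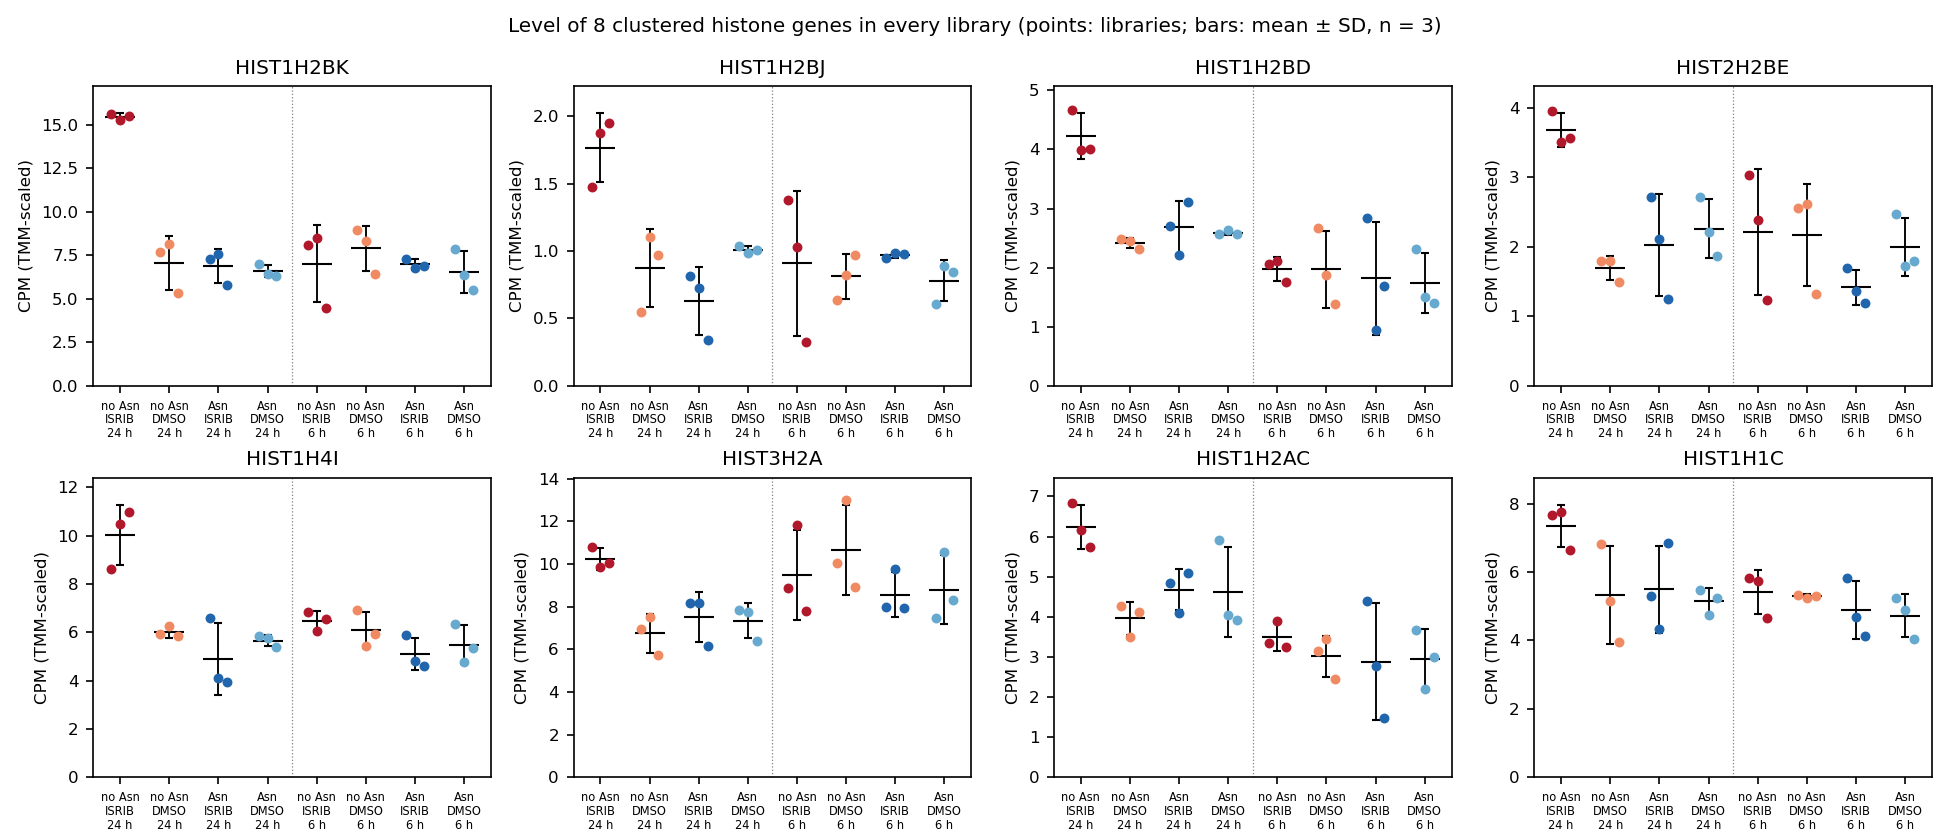
CPM in each library for 8 clustered histone genes, 1 panel per gene, with points for the 3 libraries of each of the 8 groups and the mean with its SD. HIST1H2BK lies at 15.3 to 15.7 CPM with ISRIB without asparagine at 24 h and at or below 8.97 CPM in every other library; HIST1H1C overlaps between groups.

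HIST1H2BK, HIST1H4I and HIST2H2BE passed in every one of the 24 fits that left out 1 library and under all 10 other settings. The count of 9 fell to 3 without replicate 3 of ISRIB without asparagine at 24 h and to 5 without replicate 1 of vehicle without asparagine at 24 h. Without replicate 3 of the starved ISRIB libraries the other 6 genes each lost their call, and likewise without replicate 1 of the starved vehicle libraries, where HIST1H1C and HIST4H4 gained one. HIST3H2A and HIST1H2BD also lost it without replicate 1 of starved ISRIB or replicate 3 of starved vehicle. HIST1H2BJ lost it without replicate 2 of starved ISRIB or replicate 3 of starved vehicle, HIST1H2BD without replicate 2 of starved vehicle, and HIST1H3H without replicate 2 or 3 of starved vehicle. Over these fits the highest adjusted p was 0.0594 for HIST1H2BN and 0.192 for HIST1H3H, with the other 4 between. With a correction for the GC content of transcripts 11 of the 21 rose, but the share of all genes that rose under it is not given here. Only HIST3H2BB, which was not called, owed its place among the tested genes to the starved ISRIB libraries at 24 h: with the filter set by the other 7 groups 20 genes were tested and 9 rose.

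**Figure D3:**
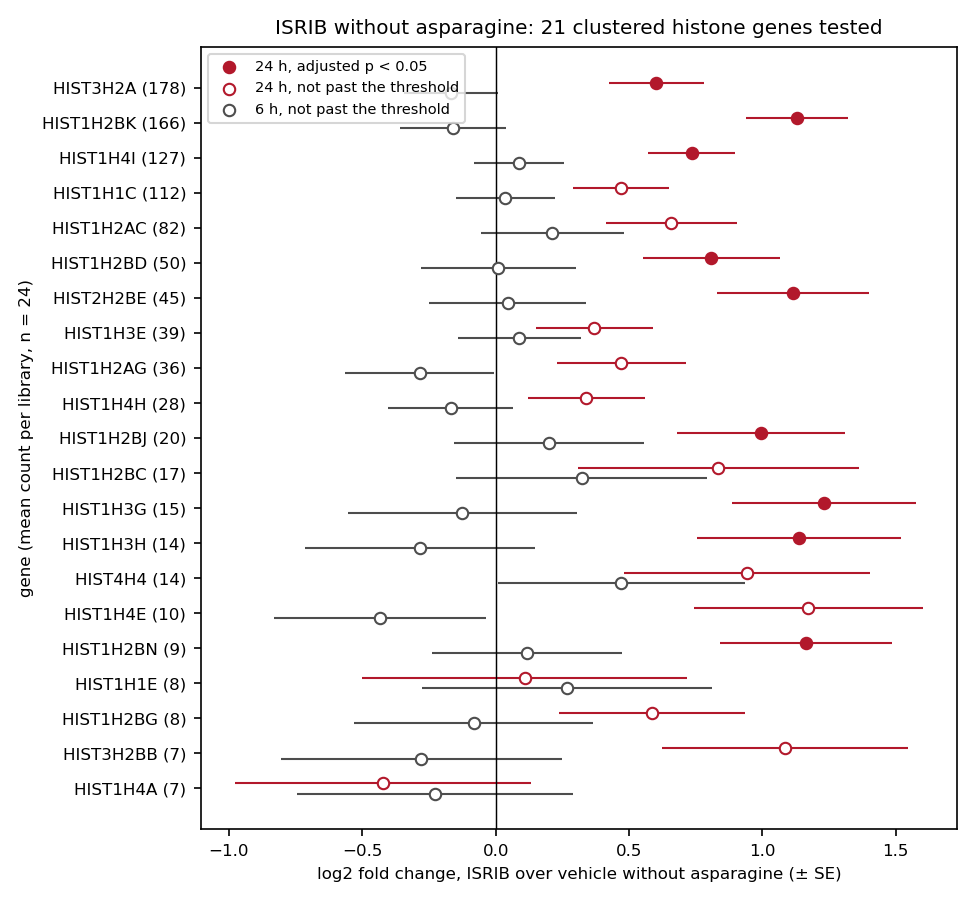
Log2 fold change with its SE of ISRIB against vehicle in medium without asparagine for the 21 tested clustered histone genes, at 24 h and at 6 h; filled points have an adjusted p below 0.05 (edgeR). At 24 h 9 points are filled and 20 of the 21 lie above 0, and at 6 h 0 are filled.

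With asparagine in the medium, ISRIB against vehicle at 24 h called 0 of the 21 genes and 0% of all genes. At an unadjusted edgeR p below 0.05 were 0 of the 21 and 248 of all 17409 genes. DESeq2 and limma called 0 as well. The median log2 fold change of the 21 was -0.03. HIST1H2BK had 0.07 ± 0.20, HIST1H4I -0.21 ± 0.17 and HIST1H2BJ -0.64 ± 0.35 on the log2 scale. Withdrawal of asparagine under vehicle at 24 h likewise called 0 of the 21, where 0.00574% of all genes were called, and DESeq2 and limma called 0. With edgeR, 1 of the 21 and 1271 of all 17409 genes reached an unadjusted p below 0.05. In that comparison HIST1H2BK had a log2 fold change of 0.10 ± 0.20, HIST1H4I of 0.09 ± 0.17 and HIST1H2BJ of -0.20 ± 0.34.

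Under ISRIB, withdrawal of asparagine for 24 h raised 6 of the 21 and lowered 0, where 9.97% of all genes rose and 12.2% fell. Unlike the comparison by drug, this one sets the starved ISRIB libraries against ISRIB with asparagine; the starved libraries are shared by both. By adjusted p the 6 were HIST1H4I with a log2 fold change of 1.03 ± 0.16 (edgeR adjusted p = 0.00013), HIST1H2BK with 1.16 ± 0.19 (0.00017), HIST1H2BJ with 1.43 ± 0.32 (0.0031), HIST1H3G with 1.09 ± 0.34 (0.024), HIST2H2BE with 0.84 ± 0.27 (0.032) and HIST1H2BN with 0.94 ± 0.31 (0.032). The median of the 21 was 0.59. HIST1H2BK, HIST1H4I and HIST1H2BJ passed in each of the 24 fits with 1 library left out and under the 10 other settings. The count was 3 when replicate 1 or replicate 3 of ISRIB without asparagine, or replicate 2 of ISRIB with asparagine, at 24 h was left out, and HIST2H2BE, HIST1H3G and HIST1H2BN also lost their call without replicate 3 of ISRIB with asparagine. It was 3 when the 2 groups were fitted alone.

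The difference between the ISRIB responses without and with asparagine at 24 h was tested as an interaction. It was positive and past the threshold for 3 of the 21 genes and negative for 0, where 3.47% of all genes were called positive and 5.59% negative. HIST1H4I had an interaction of 0.94 ± 0.23 (edgeR adjusted p = 0.016), HIST1H2BK of 1.06 ± 0.27 (0.020) and HIST1H2BJ of 1.63 ± 0.47 (0.033), all on the log2 scale. HIST2H2BE missed the threshold at 1.26 ± 0.40 (edgeR adjusted p = 0.053). HIST1H4I was called in each of the 24 fits with 1 library left out, HIST1H2BK in 22 and HIST1H2BJ in 16. HIST1H2BK lost its call without replicate 3 of ISRIB with asparagine or of vehicle without asparagine at 24 h, and HIST1H2BJ without either of these, any replicate of vehicle with asparagine, replicate 1 of vehicle without asparagine, or replicate 2 or 3 of ISRIB without asparagine, all at 24 h. The count was 1 without replicate 3 of vehicle without asparagine at 24 h, and 5 without replicate 1 of ISRIB with asparagine at 24 h or replicate 3 of ISRIB without asparagine at 6 h.

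All 3 genes called in the interaction lie in the second block on chromosome 6, which spans 21.6 kb and had 4 tested genes; the fourth, HIST1H2AG, was not called. The same 3 of 4 were called in the comparison by drug without asparagine and in the withdrawal under ISRIB. All of these comparisons share the starved ISRIB libraries at 24 h, so their calls are not independent. HIST1H2BK lies head to head with HIST1H2AH at a distance of 330 bases. The 250 bases before the start of the 3 genes are shown because these genes, neighbours on the chromosome, were called in the same comparisons. Whether they share regulation was not tested. The stretches lie before the start given by RefSeq on GRCh38.p14 and run 5′ to 3′ on the strand of the gene. That start of HIST1H4I lies downstream of the one in GENCODE release 29, so its stretch falls within the annotated exon (chr6:27138588-27139881). Capitals mark the octamer (ATTTGCAT or ATGCAAAT), CCAAT or ATTGG, and TATAAA or TTTATA, some of which overlap.
HIST1H2BJ, chr6:27132796-27133045, minus strand: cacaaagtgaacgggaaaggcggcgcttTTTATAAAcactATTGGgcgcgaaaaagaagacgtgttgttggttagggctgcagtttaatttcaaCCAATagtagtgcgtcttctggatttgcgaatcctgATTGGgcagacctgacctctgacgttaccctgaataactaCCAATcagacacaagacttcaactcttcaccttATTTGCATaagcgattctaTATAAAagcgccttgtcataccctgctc
HIST1H4I, chr6:27139032-27139281, plus strand: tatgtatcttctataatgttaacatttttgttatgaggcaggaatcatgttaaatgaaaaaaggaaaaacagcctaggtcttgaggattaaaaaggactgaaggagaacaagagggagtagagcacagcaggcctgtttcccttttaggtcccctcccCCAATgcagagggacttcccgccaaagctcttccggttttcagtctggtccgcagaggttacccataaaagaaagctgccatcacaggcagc
HIST1H2BK, chr6:27146859-27147108, minus strand: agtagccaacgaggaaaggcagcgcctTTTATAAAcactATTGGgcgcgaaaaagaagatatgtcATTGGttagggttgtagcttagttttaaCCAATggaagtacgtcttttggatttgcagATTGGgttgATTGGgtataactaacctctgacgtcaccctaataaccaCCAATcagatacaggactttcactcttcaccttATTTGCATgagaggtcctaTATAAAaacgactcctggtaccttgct

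The upstream stretches of HIST1H2BK and HIST1H2BJ were identical at 204 of 257 aligned positions (79.4%), including the octamer and a TATAAA downstream of it. Identity between HIST1H2BK and HIST1H4I was 49.2%, and HIST1H4I held a single CCAAT and neither of the other motifs in that stretch. Over 300 bases, from 250 before to 50 after the start, the octamer was present in 21 of the 49 clustered histone promoters that RefSeq matched (42.9%), against 1.80% of 27305 promoters. All 21 belonged to H2A or H2B genes, 8 of 10 and 13 of 17. CCAAT in either direction was in 41 of the 49 (83.7%), against 35.7% of all promoters, and TATAAA in either direction in 33 (67.3%), against 12%. Among the 9 genes that rose with ISRIB in starved cells at 24 h, 3 held the octamer, 9 CCAAT and 5 TATAAA; among 11 tested genes that were not called and had a promoter in RefSeq, 4, 8 and 7 did.

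At 6 h none of the comparisons between groups called a clustered histone gene with edgeR. ISRIB against vehicle without asparagine called 0 of the 21, where 2.19% of all genes were called, and DESeq2 and limma called 0. With edgeR, 0 of the 21 and 1829 of all 17409 genes reached an unadjusted p below 0.05. HIST1H2BK had 8.12, 8.49 and 4.47 CPM with ISRIB and 8.97, 8.30 and 6.43 CPM with vehicle without asparagine at 6 h, and 7.32, 6.75 and 6.86 CPM with ISRIB and 7.87, 6.36 and 5.49 CPM with vehicle with asparagine. All 4 groups overlapped, and the log2 fold change of ISRIB in starved cells was -0.16 ± 0.20. The 21 values ran from -0.43 for HIST1H4E to 0.47 for HIST4H4, with a median of 0.01.

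The other H2B genes on which the 24 h results turn were also compared at 6 h. HIST2H2BE had 3.02, 2.38 and 1.23 CPM with ISRIB and 2.56, 2.61 and 1.33 CPM with vehicle in starved cells, and 1.69, 1.37 and 1.20 CPM with ISRIB and 2.47, 1.72 and 1.80 CPM with vehicle in fed cells. HIST1H2BJ had 1.38, 1.03 and 0.324 CPM with ISRIB and 0.640, 0.825 and 0.970 CPM with vehicle in starved cells, and 0.946, 0.982 and 0.981 CPM with ISRIB and 0.606, 0.886 and 0.848 CPM with vehicle in fed cells. In both genes the starved groups overlapped, and replicate 3 of starved ISRIB was the lowest of its group. HIST1H2BD had 2.07, 2.11 and 1.75 CPM with ISRIB and 2.67, 1.88 and 1.38 CPM with vehicle in starved cells, and 2.84, 0.940 and 1.69 CPM with ISRIB and 2.32, 1.51 and 1.40 CPM with vehicle in fed cells. HIST1H2BN had 0.637, 0.379 and 0.259 CPM with ISRIB and 0.427, 0.413 and 0.357 CPM with vehicle in starved cells, and 0.349, 0.299 and 0.218 CPM with ISRIB and 0.555, 0.261 and 0.299 CPM with vehicle in fed cells. Starved ISRIB and starved vehicle overlapped in both of these genes as well.

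HIST3H2A had 8.86, 11.8 and 7.78 CPM with ISRIB and 10.0, 13 and 8.94 CPM with vehicle in starved cells at 6 h, and 7.97, 9.78 and 7.95 CPM with ISRIB and 7.47, 10.6 and 8.33 CPM with vehicle in fed cells. In all 4 groups replicate 2 had the highest value. HIST1H2AG had 1.22, 1.35 and 1.04 CPM with ISRIB and 1.97, 1.01 and 1.48 CPM with vehicle in starved cells, and 1.64, 1.24 and 1.25 CPM with ISRIB and 1.41, 1.04 and 0.748 CPM with vehicle in fed cells. The groups overlapped for HIST1H2AG.

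HIST1H3G had 0.849, 0.379 and 0.454 CPM with ISRIB and 1.01, 0.504 and 0.357 CPM with vehicle in starved cells at 6 h, and 0.498, 0.214 and 0.327 CPM with ISRIB and 0.353, 0.313 and 0.399 CPM with vehicle in fed cells. HIST1H3E had 2.28, 1.68 and 1.69 CPM with ISRIB and 1.87, 1.97 and 1.48 CPM with vehicle in starved cells, and 1.34, 1.03 and 1.03 CPM with ISRIB and 1.21, 1.36 and 1.1 CPM with vehicle in fed cells. For HIST1H3E the starved libraries all lay above the fed ones, at 1.48 CPM or more. HIST1H4I had 6.85, 6.06 and 6.55 CPM with ISRIB and 6.94, 5.46 and 5.92 CPM with vehicle in starved cells, and 5.88, 4.83 and 4.63 CPM with ISRIB and 6.36, 4.80 and 5.34 CPM with vehicle in fed cells. HIST1H1C had 5.84, 5.73 and 4.67 CPM with ISRIB and 5.34, 5.23 and 5.31 CPM with vehicle in starved cells, and 5.83, 4.70 and 4.14 CPM with ISRIB and 5.25, 4.90 and 4.04 CPM with vehicle in fed cells. Both HIST1H4I and HIST1H1C overlapped between starved ISRIB and starved vehicle.

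Each of the other comparisons at 6 h called 0 of the 21 with edgeR and limma. DESeq2 called 0 of the 11 to 60 clustered histone genes it kept in them. Asparagine withdrawal under vehicle called 4.57% of all genes. In edgeR it had 1 of the 21 and 2705 of all 17409 genes at an unadjusted p below 0.05. The median log2 fold change of the 21 in this comparison was 0.16. Its replicate numbers paired the libraries, with correlations of 0.304 to 0.339, and HIST3H2A was higher without asparagine in all 3 pairs; the fit with the GC correction and the replicate block called that gene, at a log2 fold change of 0.38 (edgeR adjusted p = 0.0305), and the block alone called 0. Withdrawal under ISRIB, which called 2.3% of all genes, had 2 of the 21 and 2219 of all genes at an unadjusted edgeR p below 0.05. The median of the 21 was 0.15. ISRIB with asparagine, which called 0% of all genes, had 1 of the 21 and 203 of all genes at that p, and a median of -0.06. The interaction at 6 h, which called 0.718%, had 0 of the 21 and 954 of all genes, and a median of 0.06.

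The ISRIB response without asparagine was larger at 24 h than at 6 h for 1 gene in a direct test of the difference, in which 3.35% of all genes were called positive and 4.24% negative. This was HIST1H2BK, with a difference of 1.29 ± 0.28 on the log2 scale (edgeR adjusted p = 0.0065), which held in each of the 24 fits with 1 library left out and under the 10 other settings. The median difference of the 21 was 0.76. At an unadjusted edgeR p below 0.05 were 7 of them, all positive, and 4484 of all 17409 genes. The count was 3 without replicate 2 of ISRIB without asparagine at 6 h or replicate 3 of vehicle without asparagine at 6 h, and 2 without replicate 1 or replicate 3 of ISRIB with asparagine at 24 h. The corresponding difference for withdrawal under vehicle called 0 of the 21, where 1.22% of all genes were called, and DESeq2 and limma called 0. With edgeR, 3 of the 21 and 1499 of all 17409 genes had an unadjusted p below 0.05.

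Within groups, 24 h was set against 6 h, which differ in the time since the medium was changed. Starved cells with ISRIB had 9 of the 21 genes higher at 24 h and 0 lower, where 14.5% of all genes rose and 17.8% fell. By adjusted p the first 8 were HIST1H2BK with a log2 fold change of 1.13 ± 0.19 (edgeR adjusted p = 0.00014), HIST1H3G with 1.54 ± 0.37 (0.0031), HIST1H2AG with 1.07 ± 0.26 (0.0034), HIST1H2BD with 1.09 ± 0.27 (0.0036), HIST1H4I with 0.63 ± 0.16 (0.0057), HIST1H2AC with 0.84 ± 0.25 (0.014), HIST1H3H with 1.14 ± 0.39 (0.031) and HIST1H2BG with 1.11 ± 0.39 (0.033). The ninth was HIST1H2BJ. HIST1H2AC lost its call without replicate 1 at 24 h, HIST1H3H without replicate 3 at 6 h or at 24 h, HIST1H2BG without replicate 1 at 24 h or any replicate at 6 h, and HIST1H2BJ without replicate 2 or 3 at either time. HIST1H2AC had 6.83, 6.16 and 5.74 CPM at 24 h and 3.34, 3.89 and 3.24 CPM at 6 h in these cells.

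Starved cells with vehicle had 0 genes higher and 2 lower at 24 h, where 12.2% of all genes rose and 13.2% fell. HIST3H2A fell by 0.66 on the log2 scale (SE 0.18, edgeR adjusted p = 0.0086), with 6.97, 7.52 and 5.76 CPM at 24 h and 10.0, 13 and 8.94 CPM at 6 h. HIST1H4E fell by 1.24 (SE 0.43, edgeR adjusted p = 0.037), with 0.249, 0.231 and 0.290 CPM at 24 h and 0.694, 0.734 and 0.408 CPM at 6 h. Neither gene overlapped between the times. The count of 2 was 0 without replicate 2 at 6 h or replicate 3 at 24 h of this group, and 1 without replicate 1 at 6 h, replicate 1 at 24 h or replicate 2 at 24 h.

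In fed cells HIST1H3E and HIST1H2AG were the genes called between times. With ISRIB 1 of the 21 rose and 0 fell, where 8.75% of all genes rose and 8.62% fell: HIST1H3E, with a log2 fold change of 1.12 ± 0.23 (edgeR adjusted p = 0.0018). With vehicle 2 of the 21 rose and 0 fell, where 9.34% of all genes rose and 9.47% fell: HIST1H3E again, with 0.95 ± 0.23 (0.0063), and HIST1H2AG with 1.05 ± 0.27 (0.0078). HIST1H3E had 2.40, 2.22 and 2.83 CPM at 24 h and 1.34, 1.03 and 1.03 CPM at 6 h with ISRIB, which did not overlap. The count with ISRIB was 4 without replicate 1 of ISRIB with asparagine at 6 h and 2 without replicate 1 of vehicle without asparagine at 6 h or replicate 2 or 3 of ISRIB with asparagine at 24 h; the count with vehicle was 1 without replicate 3 of vehicle with asparagine at 6 h, where HIST1H2AG was no longer called.

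**Figure D4:**
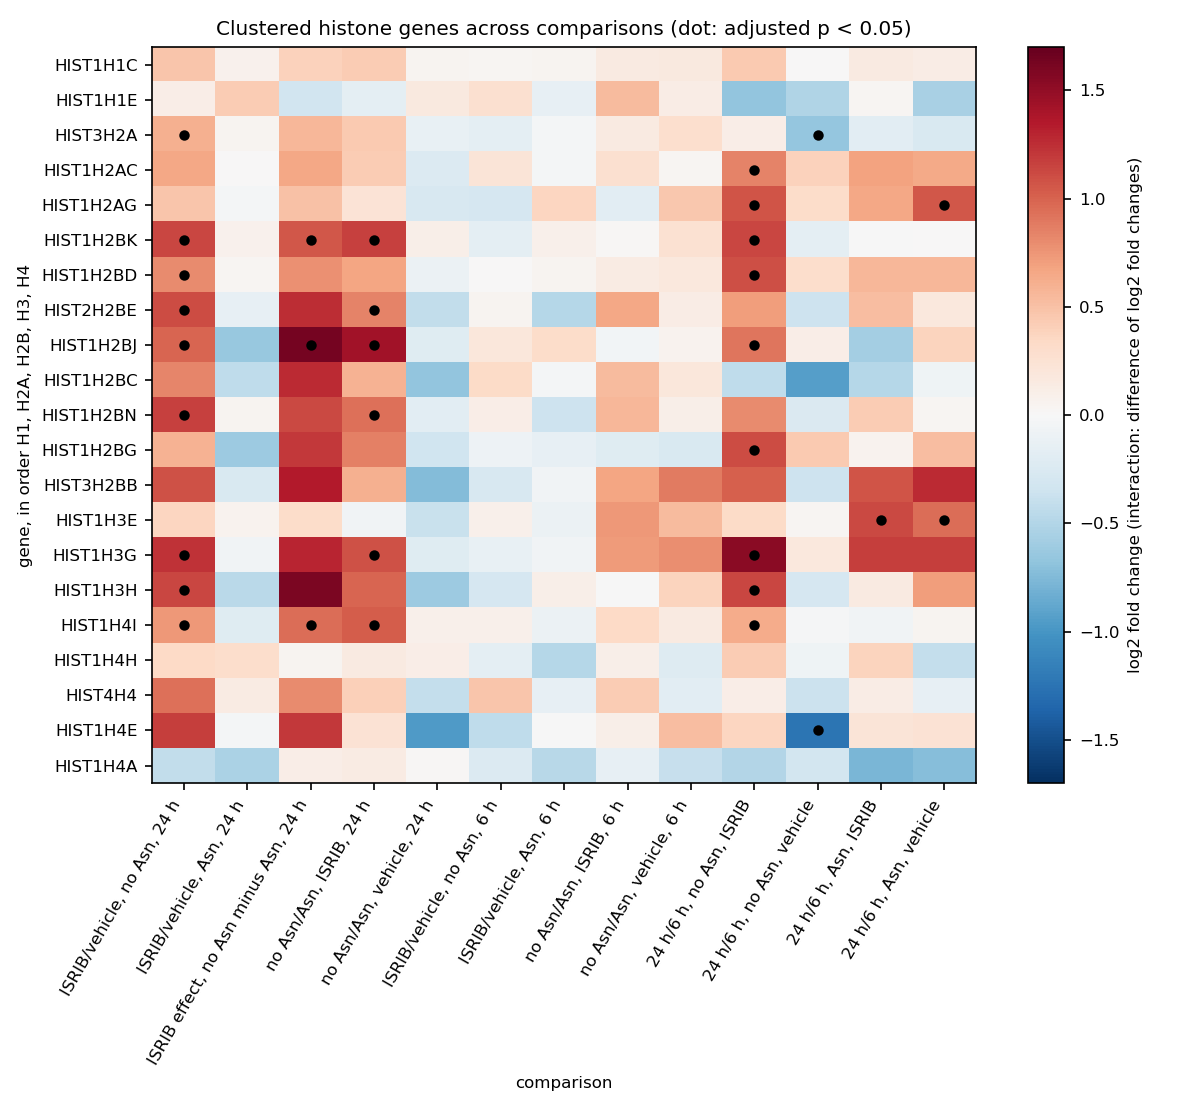
Log2 fold changes (colour, with its scale) of the 21 tested clustered histone genes in 13 comparisons, with a dot where the adjusted p is below 0.05 (edgeR). The comparisons that involve ISRIB without asparagine at 24 h share those 3 libraries and have 9, 3, 6 and 9 dots from left to right, all on positive values; the other comparisons with dots are between times, with 2, 1 and 2.

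Summed over all 60 genes, whether tested or not, the level was 78.5, 75.7 and 77.6 CPM with ISRIB without asparagine at 24 h, against 47.5, 48.3 and 41.7 CPM with vehicle without asparagine at 24 h. The sum averaged 48.4 ± 2.22 CPM with ISRIB and 49.96 ± 3.70 CPM with vehicle when asparagine was present at 24 h (SD, n = 3 each). At 6 h the means were 50.9 ± 9.34 CPM with ISRIB and 50.7 ± 5.33 CPM with vehicle in starved cells, and 43.6 ± 3.17 CPM with ISRIB and 44.6 ± 3.99 CPM with vehicle in fed cells. The starved ISRIB libraries at 24 h lay above the other 21, which ran from 40.8 to 59.2 CPM. The 39 untested genes alone summed to 3.75 to 4.07 CPM in those libraries, against 2.09 to 3.23 CPM with vehicle in starved cells at 24 h, but the other 21 libraries reached 6.33 CPM.

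**Figure D5:**
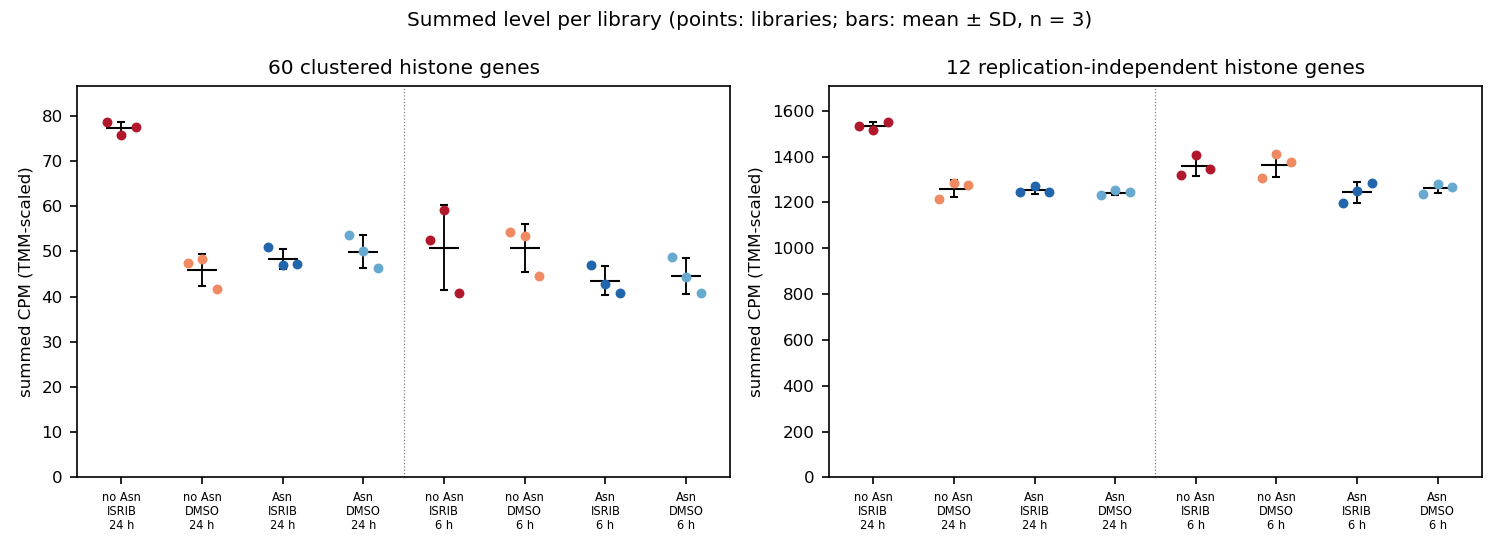
Summed CPM per library of the 60 clustered histone genes and of 12 replication-independent histone genes, with points for the 3 libraries of each group. The clustered genes sum to 75.7 to 78.5 CPM with ISRIB without asparagine at 24 h and to 40.8 to 59.2 CPM in the other 21 libraries; the replication-independent genes sum to 1515 to 1553 CPM and to 1197 to 1411 CPM.

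The 12 histone genes listed as replication-independent do not carry the cluster symbols and took many more reads. With ISRIB against vehicle without asparagine at 24 h, 5 of the 12 tested rose and 1 fell, with a median log2 fold change of 0.23, where 10.1% of all genes rose and 11.6% fell. H1F0, which encodes the linker histone H1.0 of resting and differentiated cells, had 383, 367 and 389 CPM with ISRIB, against 209, 219 and 211 CPM with vehicle, a log2 fold change of 0.83 ± 0.09, beside 0.47 ± 0.18 for the clustered linker gene HIST1H1C. H2AFZ, which encodes the variant H2A.Z, had a log2 fold change of 0.06 in the same comparison and did not pass.

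Genes that act on histone transcripts and on replication were followed beside the clustered genes. SLBP, whose protein binds the stem-loop, had a log2 fold change of 0.13 ± 0.09 with ISRIB against vehicle without asparagine at 24 h (edgeR adjusted p = 0.30) and rose by 0.39 ± 0.09 at 6 h (0.018), when 0 of the 21 clustered genes were called. NPAT, the coactivator of clustered histone transcription, had 0.01 ± 0.15 at 24 h and passed in none of the 16 comparisons. Of 20 tested genes of histone transcript synthesis and processing 5 rose and 1 fell at 24 h, with a median of 0.08, beside shares over all genes of 10.1% higher and 11.6% lower. Against the same shares, of 30 tested DNA replication genes 8 rose and 2 fell, with a median of 0.08, and their sum of 4054 to 4292 CPM with ISRIB without asparagine lay within the 3501 to 4701 CPM of the other 21 libraries. MCM2, a subunit of the replicative helicase, rose by 0.62 on the log2 scale, RRM1, a subunit of ribonucleotide reductase, fell by 0.60, and PCNA, the sliding clamp, had 0.06 and did not pass. Of 15 tested histone chaperones 2 rose and 3 fell, beside the 10.1% and 11.6% over all genes, with a median of -0.02.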

How the data were processed

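RNA of PC9 cells was sequenced in 24 libraries, 3 for each of 8 groups, per the labels. The authors used Bowtie2, featureCounts and DESeq2 with hg38, per the submitters' processing notes; their versions and roles, the strandedness and the RNA selection are not given in the sources used here. For 37411 genes the authors deposited whole read counts, used as the main input, and variance-stabilized log2 values, used in 1 alternative. GENCODE release 29 holds 36620 of these genes, and from it coordinates and transcripts were taken.

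Counts were scaled by TMM (0.902 to 1.08) and filtered with filterByExpr in edgeR 4.0.16 (R 4.3.3), which kept 17409 genes. All 24 libraries entered 1 fit with a mean for each group (16 residual degrees of freedom) and tested with the quasi-likelihood F test, with Benjamini-Hochberg adjustment over all tested genes within each of 16 comparisons at 0.05. Fold changes are log2 with their SE; the steps were tested on simulated data. Depth was 16737384 to 27495861 reads per library.

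The clustered histone genes and the other lists were chosen with earlier results of these data known. Values in every library were given for the 10 genes with the smallest adjusted p in any of 12 comparisons of 2 groups and for the 4 with the highest mean CPM, and up to 8 genes in each direction were named per comparison; HIST1H3H, HIST1H2AC, HIST1H4E, HIST1H4A and HIST4H4 were also given values outside that rule, chosen after their values were seen.

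Alternatives were DESeq2 1.42.0, RLE scaling, no filter on low counts, the replicate block, the compared groups alone, limma 3.58.1 on the deposited log2 values, a GC correction with and without the block, 3 libraries of most negative GC slope left out, and each library left out. A filter set without the starved ISRIB libraries at 24 h was chosen after seeing the data. Deviations of libraries with the same replicate number correlated by over 0.1 in all 3 pairs for 3 of the 12 comparisons of 2 groups (withdrawal with vehicle at both times, 0.187 to 0.350, and ISRIB without asparagine at 6 h, 0.327 to 0.470), and the labels name no shared day or batch.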

Additional observations from a re-analysis of the deposited data

Results flagged for a closer look

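For 3 of the 21 tested clustered histone genes the response to ISRIB at 24 h differed between media in a direct test. This test took ISRIB against vehicle without asparagine minus the same with asparagine, on the log2 scale. The difference was 1.63 for HIST1H2BJ, 0.94 for HIST1H4I and 1.06 for HIST1H2BK. Of all tested genes 3.47% were called positive and 5.59% negative. HIST1H2BJ kept its call in 16 of the 24 fits that left out 1 library. For HIST1H2BK the response to ISRIB without asparagine also differed between times, by 1.29 for 24 h minus 6 h. In the test between times 3.35% of all genes were called positive and 4.24% negative. Single libraries that stand apart within a group were not looked for by Dixon's test, which was not applied to groups of 3; fits without each library are given with the dependence on processing.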

How the results depend on the processing

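With ISRIB against vehicle without asparagine at 24 h, 9 to 13 clustered histone genes were called under the 10 other settings. The interaction at 24 h called 5 without the filter on low counts, 6 with the GC correction and 5 when the 3 libraries whose GC slopes were lowest were left out, in place of 3. Withdrawal under ISRIB at 24 h called 3 with the groups fitted alone, in place of 6. For 24 h against 6 h, fed ISRIB cells had 2 calls with DESeq2, without the filter, with limma or with the GC correction and 5 without those 3 libraries, in place of 1. Fed vehicle cells had 4 with the groups alone in place of 2, and starved vehicle cells 1 with DESeq2, without the filter or with the groups alone in place of 2. The change of the ISRIB response without asparagine between times called 2 with DESeq2, 3 without the filter and 2 with the GC correction, in place of 1. The cause of these moves was not tested. Shares of all genes called under the other settings, or with 1 library left out, are not given here. Counts under them therefore cannot be set against a general change in calls.

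With the replicate block the interaction at 24 h called 5, fed ISRIB cells between times 2 and the change of the ISRIB response between times 3. The GC correction with the block gave 6, 3 and 5 for these, 10 for withdrawal under ISRIB at 24 h and 1 for withdrawal under vehicle at 6 h, in place of 0. In the 3 comparisons whose numbers paired the libraries the block alone changed no call. Correlations with libraries of other groups were averaged per replicate number, and 15 of 24 libraries had the highest mean for their own number.

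With 1 library left out, the calls ran from 3 to 12 for ISRIB without asparagine at 24 h, 3 to 7 for withdrawal under ISRIB at 24 h and 1 to 5 for the interaction. Between times they ran from 7 to 11 for starved ISRIB, 0 to 2 for starved vehicle, 1 to 4 for fed ISRIB, 1 to 3 for fed vehicle and 1 to 3 for the change of the ISRIB response. Of 11337 values of single genes under all alternatives 0 reversed a called direction, 81 lost a call and 125 gained one. Most clustered histone genes had too few reads to test.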

Other observations

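For 20 transcripts that lack a poly(A) tail, looked up beside the clustered histone genes, the table held 13 rows, with SCARNA6 in more than 1. Of these rows 1, RN7SK, had enough reads to test, at a mean of 0.915 CPM. Its log2 fold change with ISRIB against vehicle without asparagine at 24 h was 1.27 ± 0.68 (edgeR adjusted p = 0.18). The 13 summed to 1.20 to 2.29 CPM with ISRIB and to 0.629 to 1.59 CPM with vehicle in those groups, which overlapped, and to at most 4.98 CPM in any library.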
